A study of Mus musculus with 10 samples.

Results

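Goblet cells, the mucus-secreting cells of the intestinal epithelium, were examined in organoids grown from mouse proximal small intestinal crypts. The cells were those that the authors' deposited annotation places in the goblet class, and they numbered 1425 of the 22139 annotated cells in 8 single-cell RNA libraries. There were 107, 147 and 125 goblet cells in ENR replicates 1 to 3, 173 and 379 in -VE replicates 1 and 2, and 158, 205 and 131 in Hyper replicates 1 to 3. The rule used the annotation alone, and the annotation came from the authors' clustering of these same cells, so a difference between goblet cells and another class is given below as a description with no test.

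ENR medium held murine EGF, Noggin and R-Spondin 1. Hyper medium held 8 components, namely EGF, bFGF, conditioned medium with R-Spondin 1, the BMP receptor inhibitor LDN193189, GSK-3 Inhibitor XV, Pexmetinib, VPA, which inhibits histone deacetylases, and EPZ6438, which inhibits the histone methyltransferase EZH2. The -VE libraries came from cultures in Hyper medium that lacked VPA and EPZ6438, so Hyper and -VE differed by these components, whereas ENR and -VE differed by several. ENR replicates 1 to 3 were at passage 2, 7 and 3. The -VE replicates and Hyper replicates 1 and 2 were started from ENR-organoids and taken at passage 1 and 6 in each medium, and Hyper replicate 3 and ENR replicate 3 originated from primary crypts and were at passage 3. The labels do not say how many mice stand behind the libraries, so p-values measure the spread between libraries, part of which may be technical, and passage could not be told apart from replicate.

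The goblet cells of a library held 3432039 to 12525919 UMIs, which are counted RNA molecules. Their median was 24335 to 36619 UMIs per cell, compared with 38174 to 50652 over all kept cells of the same libraries. Of the 1425 goblet cells, 8 carried a barcode that was also kept in another library, and 2 of those matched another goblet cell. Levels are given as CPM, meaning counts of a gene scaled to 1000000 UMIs summed over the goblet cells of a library. Between media these were scaled with TMM factors, and between classes they were left plain. In sums of this kind, fewer goblet cells with high levels and a lower level in each goblet cell cannot be told apart, which is why shares of cells are also given.

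Goblet cells store gel-forming mucin in apical granules and release it to build the mucus layer. Muc2 is the mucin itself, a very large glycoprotein that is folded and disulfide-bonded in the endoplasmic reticulum, heavily O-glycosylated in the Golgi and secreted with partners such as Tff3, a trefoil peptide, Fcgbp, an IgG Fc binding protein, Zg16, a lectin, and Clca1, a secreted protease. Commitment to the secretory lineages needs Atoh1, a basic helix-loop-helix factor, in cells that escape Notch signalling, and Spdef acts further along the goblet and Paneth branch. Paneth cells, which keep antimicrobial defensins and lysozyme in their granules, and enteroendocrine cells, which secrete hormones, come from the same Atoh1-dependent branch.

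Promoter sequence from RefSeq on GRCm38.p6 was sought for 11 goblet genes, and 7 had an entry. Basic helix-loop-helix factors bind short motifs called E-boxes, and the forms CAGCTG and CAGATG were searched on both strands in the 250 bases before each start. Of the 7 promoters, 4 held a match, and they are printed because each belongs to a gene whose goblet level was called lower in Hyper than in ENR. Each runs 5′ to 3′ on the strand of its gene, and the capitals mark the match.
Muc2: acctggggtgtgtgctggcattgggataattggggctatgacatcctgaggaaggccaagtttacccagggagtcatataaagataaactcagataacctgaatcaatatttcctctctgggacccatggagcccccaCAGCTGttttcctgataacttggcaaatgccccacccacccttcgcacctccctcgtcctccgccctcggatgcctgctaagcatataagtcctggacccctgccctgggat
Fcgbp: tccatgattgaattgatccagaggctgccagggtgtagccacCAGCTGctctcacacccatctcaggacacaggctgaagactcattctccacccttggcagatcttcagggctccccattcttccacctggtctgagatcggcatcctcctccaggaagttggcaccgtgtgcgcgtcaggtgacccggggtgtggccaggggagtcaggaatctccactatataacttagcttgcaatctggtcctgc
Klk1: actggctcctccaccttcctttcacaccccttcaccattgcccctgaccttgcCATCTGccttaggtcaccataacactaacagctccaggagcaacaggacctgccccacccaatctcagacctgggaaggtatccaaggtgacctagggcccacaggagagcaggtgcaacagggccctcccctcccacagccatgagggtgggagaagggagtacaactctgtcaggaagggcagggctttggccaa
Mptx1: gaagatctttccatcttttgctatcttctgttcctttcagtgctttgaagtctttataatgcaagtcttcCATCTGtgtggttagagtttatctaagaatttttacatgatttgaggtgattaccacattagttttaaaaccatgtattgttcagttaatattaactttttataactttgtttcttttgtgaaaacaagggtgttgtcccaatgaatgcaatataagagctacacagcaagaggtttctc
The Muc2 stretch lies at chr7:141690090-141690339, before a gene annotated at chr7:141690340-141754693, and its CAGCTG spans positions -112 to -107 from the start. The Fcgbp stretch lies at chr7:28070986-28071235, with CAGCTG at -208 to -203. For Klk1, a secreted kallikrein protease, the stretch lies at chr7:44225110-44225359 and holds CATCTG, the reverse complement of CAGATG, at -197 to -192. For Mptx1, a pentraxin of the Paneth lineage, it lies at chr1:174330268-174330517 with CATCTG at -180 to -175. All 4 stretches end 1 base before the annotated gene. The same windows of Agr2, Atoh1 and Spdef held neither form. Among all 32851 RefSeq promoters searched, 13.0% held CAGCTG and 14.4% held CAGATG. The share that held either form was not counted, so the match in 4 of 7 has no like background. It is a description of these windows and says nothing of binding or of the change with the medium.

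The label was first set against the markers. A cell was counted as marker-positive when at least 3 of Muc2, Tff3, Agr2, Spink4 and Fcgbp had 3 or more UMIs. By this definition 99.1%, 94.6% and 98.4% of the goblet cells of ENR replicates 1 to 3 were positive, and the -VE values were 94.8% and 98.2%. The Hyper values were 83.5%, 94.1% and 97.7%, so Hyper replicate 1 had the lowest share. Marker-positive cells made up 3.25% of the stem class, 4.76% of the transit amplifying class, 3.32% of the enterocyte class and 29.4% of the enteroendocrine class. They also made up 91.3% of the Paneth class, so Paneth cells held these markers too. The authors named the goblet clusters by Muc2, Tff3, Agr2 and Fcgbp, so the low shares outside the secretory classes follow in part from the label and are no test of it.

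Tff3 was abundant in goblet cells of every library, at 17454, 14585 and 19837 plain CPM in ENR, 12189 and 9358 in -VE, and 6303, 11358 and 11650 in Hyper. The stem class held Tff3 at 28.6 to 75.9 CPM. Muc2 was at 903, 719 and 1186 CPM in goblet cells of ENR, 723 and 400 in -VE, and 106, 378 and 541 in Hyper, with 0.422 to 1.22 in stem cells and 1.51 to 31.2 in enteroendocrine cells. Paneth cells carried Muc2 too, at 574 to 942 CPM in the 5 ENR and -VE libraries, which hold 30 to 59 Paneth cells each. The Paneth class had only 10, 2 and 2 cells in the Hyper libraries, and no Paneth level is read from those.

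Within the 5 libraries with enough Paneth cells, the secreted products fell into those that leaned to the goblet class and those that leaned to the Paneth class. Zg16 was 4.24 to 338 times, Clca1 5.90 to 102 times and Fcgbp 4.00 to 6.35 times as high in goblet as in Paneth cells, with 1 CPM added to each level. Agr2, a disulfide isomerase needed to make Muc2, was 1.92 to 3.86 times as high. The ratios of Muc2 and Tff3 straddled 1, at 0.654 to 1.60 and 0.876 to 1.41. Spink4, a Kazal-type peptide counted among the 5 markers above, ran the other way at 0.401 to 0.633, as did Klk1 at 0.407 to 0.634 and the lectin Itln1 at 0.130 to 0.214.

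Across 2089 genes that reached 50 CPM in goblet cells of every library, 111 were higher in goblet cells than in any other class of at least 20 cells in all 8 libraries, and 3 were at least 2-fold higher throughout. Paneth cells fell short of 20 in each Hyper library (10, 2 and 2), so there the comparison was made without them. Those 3 were Fcgbp, Gcnt3, a branching O-glycan transferase, and Rap1gap, a GTPase-activating protein. Fcgbp led with a goblet level of 994 to 5253 CPM, against 323 to 1313 in Paneth, 249 to 482 in enteroendocrine and 2.26 to 22.8 in stem cells. After these and Agr2 came Creb3l1, an endoplasmic reticulum stress factor, Galnt12, which starts O-glycan chains, Atoh1, Pdia5, a disulfide isomerase, Klf4, a factor of goblet maturation, and Txndc5. Spdef, Rasa4, Slc12a8, Galnt7 and Pdia6 completed the 15 leading genes. Atoh1 was at 51.1 to 104 CPM in goblet cells and at most 1.86 in stem cells, and Spdef was at 89.1 to 137 CPM, with 45.4 to 85.3 in Paneth cells.

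**Figure D1:**
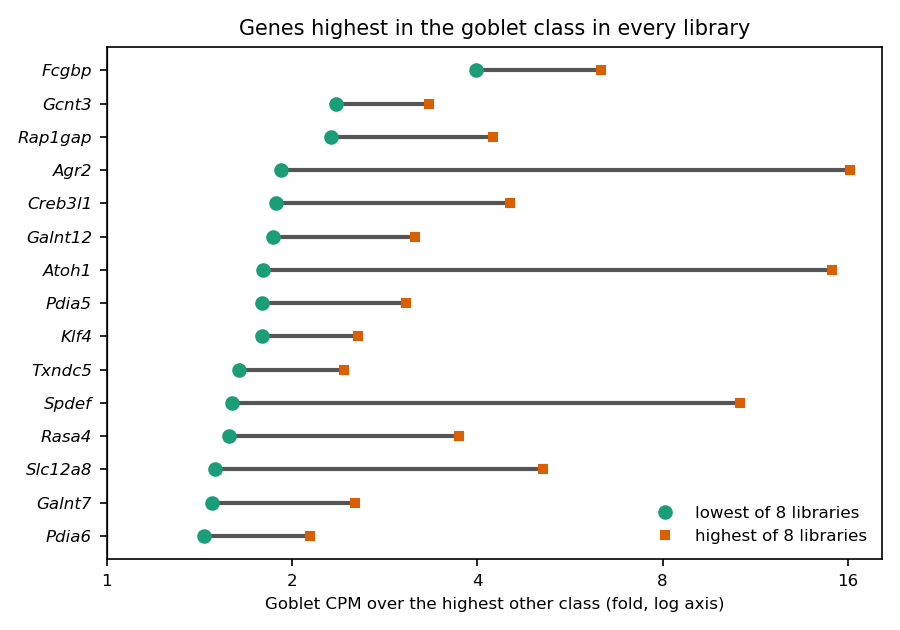
Fold of goblet CPM over the highest CPM among the other classes of at least 20 cells, with 1 CPM added to each, on a log axis for the 15 leading genes, where circles mark the lowest of the 8 libraries, squares the highest and lines join them. The circle of Fcgbp is at 3.97, those of Gcnt3 and Rap1gap are at 2.36 and 2.31, and Pdia6 comes last at 1.44, while the squares of Agr2 and Atoh1 reach 16.1 and 15.1. Paneth cells numbered under 20 in each Hyper library, so they enter the ENR and -VE libraries alone.

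The product genes were spread unevenly among the goblet cells. To compare cells at 1 depth, each was thinned to 10000 UMIs, which left out 4 to 22 goblet cells per library that held fewer. Muc2 was then detected in 67.3%, 52.5% and 73.9% of goblet cells in ENR, in 54.9% and 66.1% in -VE, and in 27.9%, 55.5% and 55.6% in Hyper, against 0% to 1.27% of stem cells. Hyper replicate 1 lay below all others, with an exact 95% binomial interval of 21% to 35.7%; this interval and the others of its kind cover counting error only. Tff3 was detected in 94.8% to 100% of goblet cells and 10.8% to 19.3% of stem cells, and Fcgbp in 82.5% to 100% and 1.77% to 4.53%.

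Zg16 marked a minority of goblet cells. It was detected in 19.8%, 16.3% and 15.1% of thinned goblet cells in ENR, 9.26% and 12.3% in -VE, and 0%, 0.524% and 3.23% in Hyper, with 0.439% to 1.59% in stem cells of ENR, 0.453% and 0.497% in -VE, and 0%, 0.205% and 0.236% in Hyper. The 1 positive goblet cell of Hyper replicate 2 held 213 of its 10000 UMIs as Zg16. In ENR replicate 1, 80.2% of goblet cells had no Zg16 UMI while the highest cell held 997 of its 10000. Clca1 was likewise found in 15.8%, 15.6% and 19.3% of goblet cells in ENR, 8.02% and 5.04% in -VE, and 0%, 4.71% and 11.3% in Hyper, with at most 0.0994% in stem cells. For both genes Hyper replicate 1 had no positive cell among 154 at this depth, which limits the share of cells with a UMI to 2.37% (exact 95% binomial limit) and sets no limit on cells that express the gene. Reg4, a secreted lectin-like protein of secretory cells, went the other way in share, at 29.7%, 28.4% and 40.3% in ENR, 53.7% and 68.3% in -VE, and 45.5%, 71.2% and 74.2% in Hyper, with 0.317% to 2.24% in stem cells.

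Many goblet cells also held RNA of other lineages. Lyz1, the Paneth lysozyme, was detected in 84.2%, 78.0% and 76.5% of thinned goblet cells in ENR, 88.9% and 94.1% in -VE, and 72.7%, 60.7% and 52.4% in Hyper. The same share in stem cells, which should lack Lyz1, was 34.2%, 26.0%, 27.6%, 32.6%, 28.5%, 17.1%, 5.89% and 6.83% in the same library order, so the goblet shares were above that background in every library. As plain levels, Lyz1 was at 3541, 2875 and 3008 CPM in goblet cells of ENR, 8299 and 11842 in -VE, and 6811, 2412 and 3522 in Hyper. It reached 20045 to 38023 CPM in the Paneth cells of the 5 libraries and 7.8 to 80.2 in stem cells, so the goblet class sat between them. Muc2 and Lyz1 were found together in 61.4%, 43.3% and 63.9% of goblet cells in ENR, 51.9% and 64.7% in -VE, and 24.7%, 42.4% and 37.9% in Hyper, and in at most 0.633% of stem cells.

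Defa24, a Paneth alpha-defensin whose near-identical copies make its count uncertain, was at 8020 to 29526 CPM in goblet cells, 147897 to 238417 in Paneth cells and 10.7 to 168 in stem cells. Its distribution was skewed, since in ENR replicate 1 the median goblet cell held 2 of 10000 UMIs and the cell at the 90th percentile held 851. Whether cells of mixed content were doublets, Paneth cells within the class or goblet cells with both programmes was not tested.

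Proliferation RNA was present as well. Mki67, a marker of cycling cells, was at 111 to 181 CPM in goblet cells, compared with 199 to 274 in transit amplifying, 39.6 to 65.7 in stem, 8.82 to 76.6 in Paneth and 6.16 to 62.9 in enteroendocrine cells, the Paneth range being over the 5 ENR and -VE libraries. In thinned cells it was detected in 27.7%, 48.9% and 33.6% of goblet cells in ENR, 34.6% and 53.8% in -VE, and 37.7%, 37.2% and 30.6% in Hyper, against 26.3% to 41.7% of stem cells. Atoh1 and Mki67 were detected together in 12.3% to 25.5% of goblet cells and in at most 0.635% of stem cells. Among the goblet cells of a library (101 to 357 cells after thinning), Spearman's rho between the summed share of mucin and mucus genes and that of cycling genes was -0.669 to -0.283, and rho between mucus and Paneth genes was 0.636 to 0.812. These correlations are descriptions over cells of 1 library that share its depth, and shares of a fixed total constrain each other. The mucus-partner list was also higher in Paneth cells than in goblet cells, at 76236 to 96763 plain CPM against 43330 to 61149 in ENR. A positive rho between mucus and Paneth genes can therefore follow from the choice of lists.

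**Figure D2:**
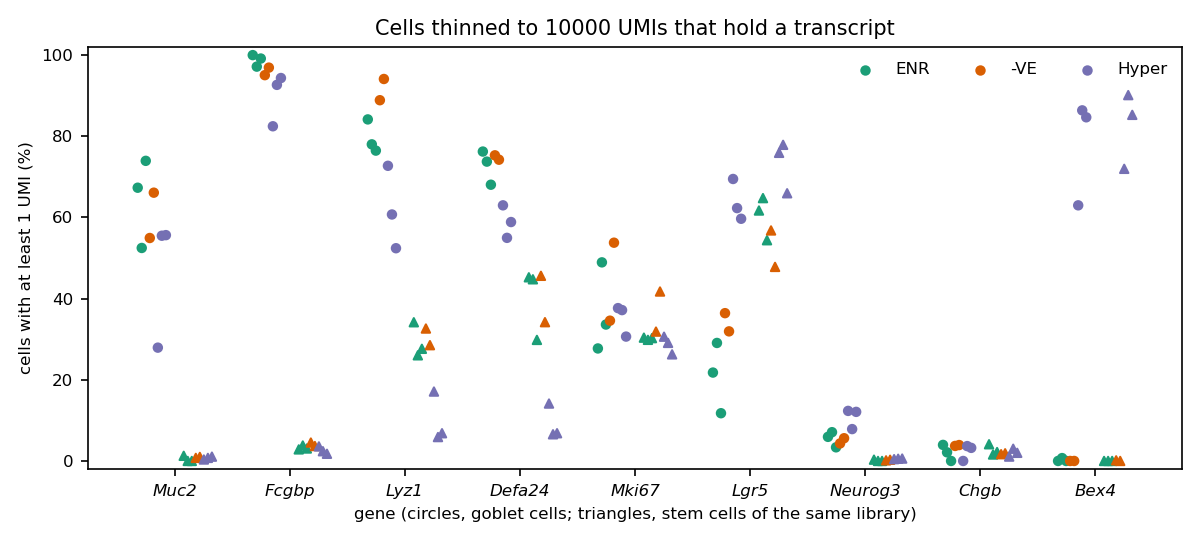
Percentage of cells, thinned to 10000 UMIs, with at least 1 UMI of each gene, with circles for goblet cells and triangles for stem cells, 1 point per library coloured by medium. Goblet cells with Lyz1 range from 52.4% to 94.1% and those with Muc2 from 27.9% to 73.9%, and Bex4 is near 0 in ENR and -VE in both classes.

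The share of goblet cells among kept cells did not differ between media beyond what the tests can show. It was 4.89%, 5.65% and 5.32% in ENR, 7.24% and 8.83% in -VE, and 5.62%, 5.82% and 6.61% in Hyper. The means were 5.29% ± 0.383 (SD, n = 3), 8.03% ± 1.12 (SD, n = 2) and 6.01% ± 0.522 (SD, n = 3). Both -VE libraries lay above all others, and ENR and Hyper overlapped. The two-sided exact permutation test gave p = 0.2 for each of the 3 comparisons (adjusted p = 0.2), and for the comparisons with -VE, 0.2 is the smallest value that 3 against 2 libraries allow. Counted by marker-positive cells of any class in place of the annotation, the share was 11.6% to 12.8% in ENR, 14.5% to 16% in -VE and 8.18% to 11.3% in Hyper, so Hyper went from 0.727 percentage points above ENR to 2.96 below it (exact p = 0.1, the smallest that 3 against 3 allow). That count includes Paneth cells.

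Mucin and mucus-partner genes took up 5.25%, 4.46% and 6.29% of goblet UMIs in ENR, 4.69% and 3.74% in -VE, and 2.61%, 3.86% and 4.19% in Hyper. The means were 5.33% ± 0.918 (SD, n = 3), 4.21% ± 0.669 (SD, n = 2) and 3.56% ± 0.833 (SD, n = 3). The 3 Hyper libraries lay below the 3 ENR libraries by a mean of 1.78 percentage points (exact permutation p = 0.1, adjusted p = 0.3), a difference of -1.78. Without Tff3 the groups overlapped, with Hyper replicate 3 (3.03%) above ENR replicate 2, and the difference was -1.03 (exact p = 0.2), while that of -VE from ENR was -0.471 (exact p = 0.4). The difference of Hyper from -VE was -0.657 (exact p = 0.6) and that of -VE from ENR was -1.12 (exact p = 0.4), each with adjusted p = 0.6, and these groups overlapped. Single cells were far more varied than libraries: the median cell devoted 1.69% to 4.95% of its UMIs to these genes, and the highest cell of a library devoted 16.3% to 39.5%. This share is not particular to goblet cells. In ENR the mucus partners summed to 76236 to 96763 plain CPM in Paneth cells and 43330 to 61149 in goblet cells. In -VE the sums were 78107 to 86044 and 36572 to 45662. A change in Paneth-type content of the goblet class would thus also move the share, which was not tested.

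To find which genes differed between the media within goblet cells, UMIs were summed over the goblet cells of each library and 11714 genes were fitted with edgeR's quasi-likelihood test. A gene was called when its Benjamini-Hochberg adjusted p was under 0.05 and it changed at least 2-fold; all adjusted p-values of single genes below come from this test. Hyper and ENR differed in 1563 genes (13.3% of those tested), of which 1254 were higher (10.7%) and 309 lower (2.64%) in Hyper. Hyper and -VE differed in 1156 genes (9.87%), 1021 higher (8.72%) and 135 lower (1.15%) in Hyper. Only 133 genes (1.14%) differed between -VE and ENR, with 62 higher (0.529%) and 71 lower (0.606%) in -VE. The 3 comparisons share libraries and are not independent of each other. The median log2 fold change over all tested genes was 0.01, -0.000614 and 0.02.

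Some mucus products of goblet cells were lower in Hyper than in ENR. Of 5 mucins tested, 2 were called lower and none higher, with a median log2 fold change of -0.87, and of 14 mucus partners, 5 were called lower and 1 higher, with a median of -1.07. The background rates were 2.64% lower and 10.7% higher. Between Hyper and -VE, 1 mucin was lower, and 1 mucus partner was lower and 1 higher (background 1.15% and 8.72%). The partner called higher against ENR and against -VE was Wfdc2. It passed the filter on low counts only through Hyper, so the count of 1 higher is a description. The mucin called lower beside Muc2 against ENR, and the only one called against -VE, was Muc3. With 0, 1 and 2 UMIs in Hyper, Muc3 could pass that filter only through ENR and -VE. The counts of mucins called are therefore a description too. Between -VE and ENR no mucin was called, and 2 members of the mucus-partner list were called lower in -VE (background 0.606%). These 2 were the chemokines Ccl6 and Ccl9. The 5 members called lower in Hyper than in ENR were Fcgbp, the proteases Klk1 and Tpsg1, and the same 2 chemokines.

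Muc2 was at 942, 717 and 1278 TMM-scaled CPM in ENR, 730 and 397 in -VE, and 100, 358 and 544 in Hyper. Every Hyper library lay below every ENR library, and the -VE values reached into both groups. Its log2 fold change was -1.55 ± 0.45 (SE) between Hyper and ENR (adjusted p = 0.021), -0.76 ± 0.49 between Hyper and -VE (adjusted p = 0.301) and -0.80 ± 0.50 between -VE and ENR (adjusted p = 0.438). The Hyper against ENR call was lost with DESeq2 (-1.55), without ENR replicate 3 (-1.30) and without Hyper replicate 2 (-1.60). The other called mucin, the transmembrane Muc3, was near the detection limit at 5, 12 and 1 UMIs in ENR, 11 and 35 in -VE, and 0, 1 and 2 in Hyper, and its reads may be shared with a near-identical copy. Muc13, a transmembrane mucin, was lower by less than 2-fold, from 567, 512 and 541 CPM in ENR to 263, 305 and 316 in Hyper (log2 fold change -0.87 ± 0.09, adjusted p = 4.45e-05).

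Fcgbp, the leading goblet gene, fell in Hyper from 5480, 4048 and 5621 CPM in ENR to 942, 1708 and 1968, with 3206 and 2122 in -VE. The -VE libraries lay between the other groups without overlap. The change from ENR to Hyper was -1.71 ± 0.24 on the log2 scale (adjusted p = 0.00028), whereas the steps from -VE to Hyper (-0.79 ± 0.26, adjusted p = 0.0484) and from ENR to -VE (-0.92 ± 0.27, adjusted p = 0.098) did not meet the 2-fold rule or the threshold. Tff3 followed the same order in its means, although Hyper and -VE overlapped, at 18208, 14546 and 21377 CPM in ENR, 12304 and 9277 in -VE, and 5973, 10762 and 11702 in Hyper, with a log2 fold change of -0.93 ± 0.21 against ENR (adjusted p = 0.00646). That falls just short of 2-fold, and Tff3 was called without ENR replicate 2 (-1.06), Hyper replicate 2 (-1.02) or Hyper replicate 3 (-1.09).

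Klk1 fell from 321, 246 and 460 CPM in ENR to 36.2, 49.4 and 119 in Hyper (log2 fold change -2.34 ± 0.36, adjusted p = 0.000475). With 178 and 181 CPM in -VE, Klk1 was also lower in Hyper than in -VE (-1.42 ± 0.38, adjusted p = 0.0195), a call lost with DESeq2 (-1.39) and without either -VE library or Hyper replicate 2 (-1.41, -1.40 and -1.22). The tryptase Tpsg1 fell from 198, 158 and 224 CPM to 48.8, 70.6 and 87.4 (-1.49 ± 0.22, adjusted p = 0.000395), with 142 and 88.0 in -VE. The 2 chemokines of the list, Ccl6 and Ccl9, were low in both Hyper and -VE. Ccl6 was at 149, 200 and 297 CPM in ENR, 12.5 and 25.7 in -VE, and 10.4, 36.9 and 48.4 in Hyper, and was called lower than ENR in Hyper (-2.78 ± 0.42, adjusted p = 0.000474) and in -VE (-3.44 ± 0.50, adjusted p = 0.00659). For Ccl9 the levels were 651, 418 and 550 CPM in ENR, 155 and 120 in -VE, and 101, 334 and 263 in Hyper. The Ccl9 calls were lost without ENR replicate 1 or Hyper replicate 1 in Hyper (-1.06 and -0.85 in place of -1.21) and without ENR replicate 1 or 3 or either -VE library in -VE (-2.17 to -1.80 in place of -1.97). Without -VE replicate 2, Ccl6 was no longer called in -VE (-4.11).

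Other products did not pass the test between Hyper and ENR. Spink4 stood at 19749, 15542 and 21806 CPM in ENR, 21331 and 15388 in -VE, and 12879, 18123 and 19230 in Hyper, and Agr2 at 5576, 3678 and 5617, 4176 and 4062, and 2137, 3476 and 5240. Both overlapped between media and neither passed the test (Hyper against ENR -0.18 ± 0.16, adjusted p = 0.428, and -0.45 ± 0.25, adjusted p = 0.195). Itln1 was at 4473, 3235 and 4491 CPM in ENR, 5164 and 7140 in -VE, and 3245, 3504 and 4845 in Hyper (-0.07 ± 0.17, adjusted p = 0.782). Zg16 varied most, with 1975, 3098 and 8664 CPM in ENR, 1863 and 624 in -VE, and 0, 161 and 1221 in Hyper, so that its log2 fold change of -3.32 ± 1.28 did not pass (adjusted p = 0.0679). It passed without Hyper replicate 1 (-2.74), without Hyper replicate 3 (-5.82) and in thinned cells (-3.06). Clca1 did not pass either (-1.48 ± 0.96, adjusted p = 0.272), but did without Hyper replicate 3 (-3.55). With 1 library left out it ranged from -3.55 to -0.75. With no filter on low counts, Zg16 and Clca1 passed at unchanged values. Their SEs there were 0.095 for Zg16 and 0.11 for Clca1, far below the spread between libraries, so this is not read as support. The 1 partner called higher was Wfdc2, a protease inhibitor of mucosal secretions, with 1, 0 and 0 UMIs in ENR, none in -VE and 73, 87 and 129 in Hyper, at least 113.6-fold higher in Hyper than in -VE when -VE is set at a floor of 3 UMIs over the group.

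**Figure D3:**
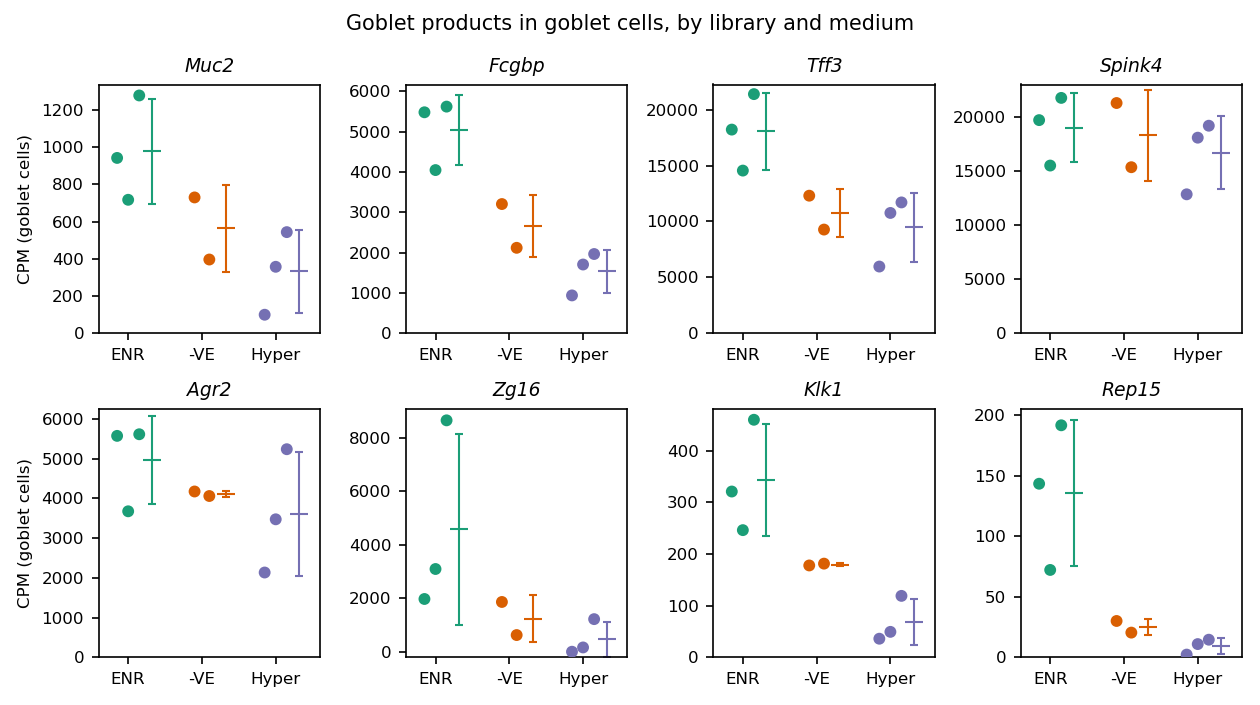
TMM-scaled CPM of 8 product and granule genes in the goblet cells of each library, with 1 point per library and, beside the points, the mean and SD of each medium. Muc2, Fcgbp, Tff3, Klk1 and Rep15 are lower in each Hyper library than in any ENR library, while Spink4 and Agr2 overlap.

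Few genes of the folding machinery of the endoplasmic reticulum were called. Of 31 genes, 2 were lower and none higher in Hyper than in ENR, with a median of -0.15, against a background of 2.64% lower and 10.7% higher. Their summed plain level was 13786 to 17290 CPM in ENR, 15195 to 16100 in -VE and 12296 to 16336 in Hyper, so the groups overlapped. Hspa5, the main chaperone of the compartment, was at 1078, 805 and 896 CPM in ENR, 929 and 974 in -VE, and 693, 793 and 825 in Hyper and was not called. The 2 called genes belong to the unfolded protein response. Ern2, an epithelial stress sensor also called IRE1 beta, fell from 149, 100 and 142 CPM to 49.5, 60.0 and 77.2 (-1.06 ± 0.17, adjusted p = 0.00072), with 85.2 and 77.3 in -VE; it dropped under 2-fold without ENR replicate 1, ENR replicate 3 or Hyper replicate 1 (-0.96, -0.98 and -0.93). Dnajb9, a co-chaperone, fell from 48.9, 31.3 and 50.9 CPM to 19.6, 16.8 and 12.3 (-1.39 ± 0.20, adjusted p = 0.000352), with 20.0 and 18.0 in -VE, where it was also called against ENR (-1.19 ± 0.22, adjusted p = 0.0189, not called without ENR replicate 1, ENR replicate 3 or -VE replicate 2, at -1.09, -1.07 and -1.10).

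Some enzymes that build O-glycans on mucin were called in each direction. Among 31 tested, 5 were higher and 4 lower in Hyper than in ENR (background 10.7% and 2.64%), with a median of -0.31. The 5 include Gcnt1, a branching enzyme with no UMI in ENR, 1 and 3 in -VE and 23, 37 and 32 in Hyper, which passed the filter on low counts only through Hyper, so the count of higher calls is a description. The deepest fall was in Gal3st2, which adds sulfate to galactose, at 15.4, 8.01 and 11.3 CPM in ENR, 4.90 and 3.64 in -VE, and 0.621, 0.447 and 0.212 in Hyper (-4.61 ± 0.42, adjusted p = 1.4e-05). The 3 media did not overlap for Gal3st2. The sialyltransferase St3gal6 fell from 94.9, 78.7 and 87.3 CPM to 32, 50.6 and 41.0 (-1.07 ± 0.15, adjusted p = 0.000243, or -0.92 and not called without Hyper replicate 1), and St3gal4 and A4gnt were called lower as well (-1.44 and -1.33). In thinned cells St3gal6 and St3gal4 fell just short of 2-fold (-0.97 and -0.98). B4galt1, a galactosyltransferase, rose from 30.0, 26.8 and 38.3 CPM in ENR to 63.8, 88.9 and 86.2 in Hyper (1.34 ± 0.17, adjusted p = 0.000157), with 61.9 and 46.2 in -VE. Fut2, which adds the terminal fucose of H antigen, rose from 10.7, 5.86 and 7.85 CPM to 14.6, 22.5 and 33.3 (1.54 ± 0.31, adjusted p = 0.00264). Gcnt3 and Galnt12, the glycosylation enzymes among the leading goblet genes, were not called (-0.11 and -0.18).

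In the list of 14 secretory transcription factors, 1 was called lower and none higher in Hyper against ENR (background 2.64% and 10.7%), with a median of -0.21. Atoh1 was at 78.3, 67.2 and 112 CPM in ENR, 90.1 and 69.7 in -VE, and 48.5, 59.9 and 78.1 in Hyper (-0.47 ± 0.20, adjusted p = 0.104), and Spdef at 143, 116 and 145, 114 and 88.3, and 112, 110 and 102 (-0.31 ± 0.12, adjusted p = 0.0655). Klf4, a factor of goblet maturation, was lower by less than 2-fold, at 330, 246 and 342 CPM in ENR, 183 and 135 in -VE, and 127, 176 and 202 in Hyper (-0.86 ± 0.18, adjusted p = 0.00331). The called gene was Creb3l4, a membrane-bound stress factor, which fell from 70.3, 58.0 and 82.6 CPM to 30.3, 31.6 and 34.2 (-1.13 ± 0.14, adjusted p = 0.000143, or -0.99 and not called without ENR replicate 3). Gfi1, a repressor that acts below Atoh1, was higher in Hyper at 33.7, 24.9 and 37.3 CPM than in -VE at 13.1 and 14.0 (1.22 ± 0.20, adjusted p = 0.00146).

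Of the Notch ligands Dll1, Dll4, Jag1 and Jag2, Dll1 was called lower and Jag2 higher in Hyper than in ENR, while Dll4 (-0.21) and Jag1 (0.34) were not called. Dll1, the ligand that secretory progenitors present to their neighbours, fell from 107, 90.1 and 89.8 CPM in ENR to 49.4, 37.1 and 44.6 in Hyper (-1.13 ± 0.12, adjusted p = 4.55e-05), with 56.7 and 50.3 in -VE. Without cells that held a UMI of Mki67 or Top2a, an alternative chosen after seeing the data, Dll1 was at -0.75 and not called. Jag2 rose from 2.67, 2.93 and 1.57 CPM in ENR to 8.61 and 13.7 in -VE and 15.2, 12.5 and 13.4 in Hyper, and was called in both against ENR (2.20 ± 0.30, adjusted p = 0.0052, and 2.46 ± 0.28, adjusted p = 6.66e-05). The Jag2 call in -VE was lost without -VE replicate 2 (1.80). Of 13 Notch genes, 2 were higher and 1 lower in Hyper than in ENR, against a background of 10.7% and 2.64%.

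Among 13 granule and exocytosis genes, 3 were lower and 1 higher in Hyper than in ENR, with a median of -0.40, and among 11 ion and calcium genes, 2 were lower and none higher (background 2.64% lower and 10.7% higher). Of those 11, 5 had a higher value in Hyper. Rep15, a Rab15 effector, was at 144, 72.3 and 192 CPM in ENR, 30.1 and 20.5 in -VE, and 2.33, 11.0 and 14.6 in Hyper, 3 ranges that did not overlap (Hyper against ENR -3.90 ± 0.45, adjusted p = 7.5e-05; -VE against ENR -2.43 ± 0.45, adjusted p = 0.0217). The -VE call of Rep15 was lost with DESeq2 (-2.44) and without ENR replicate 1, ENR replicate 3 or -VE replicate 2 (-2.38, -2.10 and -2.16). Bcas1 fell from 52.5, 33.8 and 67.5 CPM to 10.1, 8.79 and 17.8 (-2.08 ± 0.28, adjusted p = 0.000205), and Fer1l6, a ferlin, by 2.41 on the log2 scale (adjusted p = 0.000624). The calcium-dependent protease Capn9 fell from 42.4, 32.6 and 60.3 CPM to 4.35, 12.2 and 14.2 (-2.14 ± 0.35, adjusted p = 0.000782). Cplx2, a complexin that clamps vesicle fusion, was the 1 gene called higher, from 1.48, 1.76 and 1.26 CPM to 5.44, 10.6 and 6.15 (2.27 ± 0.38, adjusted p = 0.000934). It was low in ENR and depended on other media to pass the filter on low counts, so this call is a description.

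**Figure D4:**
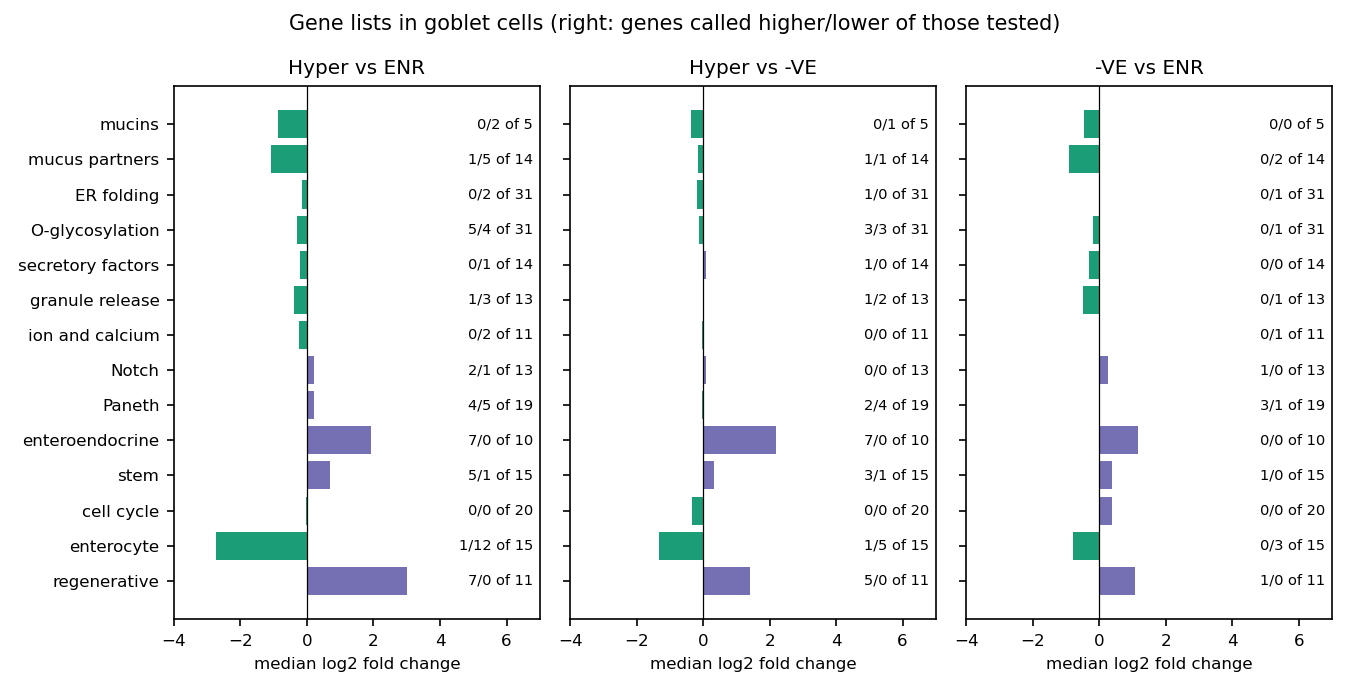
Median log2 fold change of each gene list in goblet cells as bars, for the 3 comparisons of media, with the number of genes called higher and lower out of those tested at the right. Mucus partners have a median of -1.07 and enterocyte genes of -2.73 in Hyper against ENR, while cell cycle genes have medians of -0.036, -0.33 and 0.38 in Hyper against ENR, Hyper against -VE and -VE against ENR.

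RNA of other lineages within the goblet class changed with the medium as well. Enterocyte genes, which serve fat and sugar absorption, were lower in Hyper than in ENR in 12 of 15 and higher in 1, with a median of -2.73 (background 2.64% lower and 10.7% higher). Their summed plain level in goblet cells was 948 to 1197 CPM in ENR, 672 to 689 in -VE and 390 to 438 in Hyper. The same sum in stem cells was 803 to 884, 692 to 906 and 508 to 804 CPM. Fabp1, the liver-type fatty acid binding protein, fell in goblet cells from 132, 65.7 and 84.5 CPM to 4.97, 8.04 and 15.9 (-3.33 ± 0.34, adjusted p = 2.98e-05), and Apoa1, a lipoprotein component, from 57.8, 60.4 and 50.6 CPM to 4.50, 8.19 and 4.03 (-3.30 ± 0.20, adjusted p = 7.51e-07). The exception was Anpep, a brush border peptidase, which rose from 27.0, 27.2 and 23.9 CPM to 64.6, 86.2 and 71.1 (1.50 ± 0.13, adjusted p = 1.18e-05). The annotated enterocytes numbered 214, 340 and 292 in ENR, 149 and 244 in -VE, and 7, 58 and 21 in Hyper, and enterocyte progenitors 486 to 809 in ENR, 105 and 184 in -VE, and 2 or 3 in Hyper. The part of free RNA from these cells in the goblet values was not tested.

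Paneth genes split. Of 19 tested, 4 were higher and 5 lower in Hyper than in ENR (background 10.7% and 2.64%), with a median of 0.21. Lyz1 was highest in -VE, at 8377 and 11740 CPM, against 3694, 2868 and 3242 in ENR and 6454, 2286 and 3537 in Hyper. It was called higher in -VE than in ENR (1.62 ± 0.31, adjusted p = 0.0232) and lower in Hyper than in -VE (-1.30 ± 0.31, adjusted p = 0.0114), and Hyper and ENR overlapped (0.32 ± 0.28, adjusted p = 0.415). The first call was lost without each of the ENR libraries or without -VE replicate 2 (1.36 to 1.72), and the second without -VE replicate 2 (-1.04). Mptx1 fell stepwise from 1954, 1430 and 3029 CPM in ENR to 306 and 236 in -VE and 36.3, 109 and 81.3 in Hyper, with a log2 fold change of -4.82 ± 0.38 between Hyper and ENR (adjusted p = 5.41e-06). Defa24 fell from 22952, 19488 and 31818 CPM to 10439, 7599 and 8974 (-1.46 ± 0.17, adjusted p = 8.41e-05). Ang4, an antimicrobial ribonuclease, and Mmp7, the protease that matures defensins, rose instead. Ang4 went from 79.5, 112 and 89.8 CPM in ENR to 204 and 385 in -VE and 409, 421 and 582 in Hyper (2.32 ± 0.23 in Hyper against ENR, adjusted p = 2.24e-05), and Mmp7 from 230, 246 and 233 to 540 and 445 and then 767, 995 and 1117 (2.02 ± 0.13, adjusted p = 1.46e-06). Wnt3, a niche signal, rose from 58.7, 60.2 and 47.7 CPM to 168, 139 and 148 (1.44 ± 0.12, adjusted p = 8.19e-06).

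Of 22 enteroendocrine genes, 10 were high enough to test, and 7 of them were called higher and none lower in Hyper, against ENR and against -VE alike (background 10.7% and 8.72% higher). Genes near 0 in the other media could pass the filter only through Hyper, so these counts are a description. Neurog3, which commits cells to the endocrine lineage, was at 25.2, 22.1 and 23.9 CPM in ENR, 27.4 and 21.8 in -VE, and 125, 72.8 and 90.4 in Hyper (2.02 ± 0.19, adjusted p = 1.88e-05 against ENR). It was detected in 3.36% to 7.09% of thinned goblet cells in ENR, in 4.32% and 5.60% in -VE and in 12.3%, 7.85% and 12.1% in Hyper, with at most 0.589% in stem cells. Tac1, the precursor of substance P, rose from 0, 1 and 0 UMIs in ENR and 10 in each -VE library to 141, 71 and 105 in Hyper. Chga, Chgb and Cck, markers of mature endocrine cells, were not called, and Chgb was detected in at most 3.96% of goblet cells, within the 1.07% to 4.11% seen in stem cells.

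Stem cell genes rose in part. Of 15, 5 were higher and 1 lower in Hyper than in ENR (background 10.7% and 2.64%), with a median of 0.69. Lgr5, the Wnt-responsive receptor of crypt base stem cells, was at 34.4, 47.3 and 20.1 CPM in ENR, 62 and 50.9 in -VE, and 142, 124 and 117 in Hyper (1.88 ± 0.21, adjusted p = 6.31e-05). Its share of positive goblet cells after thinning was 21.8%, 29.1% and 11.8% in ENR, 36.4% and 31.9% in -VE, and 69.5%, 62.3% and 59.7% in Hyper, compared with 47.8% to 77.9% of stem cells. Smoc2 rose with it (1.18 ± 0.15, adjusted p = 0.000111). Olfm4 was the exception, at 331, 295 and 303 CPM in ENR, 224 and 308 in -VE, and 91.6, 4.77 and 3.82 in Hyper (-3.18 ± 0.75, adjusted p = 0.0075, or -6.15 without Hyper replicate 1). None of 20 cycling genes was called in any comparison by edgeR or DESeq2, although all 20 had a lower value in Hyper than in -VE (median -0.33) and 18 a higher value in -VE than in ENR (median 0.38). At an unadjusted edgeR p under 0.05 there were 4 for Hyper against ENR, 7 for Hyper against -VE and 9 for -VE against ENR, where 41.4%, 33.4% and 18.1% of all genes met that mark. Mki67 differed by -0.10 ± 0.14 (log2) between Hyper and ENR (adjusted p = 0.65).

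Of 16 genes linked to regeneration, 11 were high enough to test, and 7 of these were called higher in Hyper than in ENR (background 10.7%). Among them Anxa1 had no UMI in ENR and passed the filter only through the other media. Basp1, with no UMI in ENR and 0 and 1 in -VE, passed only through Hyper. Reg3b and Clu also needed the Hyper libraries to pass it. The count and the calls of these genes are therefore a description. Reg3b, an antimicrobial lectin, rose from 1.78, 2.74 and 0.314 CPM in ENR and 0.742 and 0.158 in -VE to 35.6, 114 and 100 in Hyper (5.52 ± 0.57 against ENR, adjusted p = 3.33e-05), although its reads may be shared with near-identical copies. Anxa5 rose from 16.9, 14.8 and 23.5 CPM in ENR to 39.0 and 50.7 in -VE and 53.6, 63.4 and 77.5 in Hyper (1.83 ± 0.19, adjusted p = 3.46e-05). Clu, the marker of revival stem cells, had low counts, with 4, 0 and 2 UMIs in ENR, 4 and 30 in -VE, and 15, 33 and 81 in Hyper, and was called higher in Hyper than in ENR (3.85 ± 1.01, adjusted p = 0.0125, not called without ENR replicate 2 at 3.06). The 4 tested Bex genes, small X-linked adaptor proteins, were called higher in Hyper against both other media (background 10.7% and 8.72%). Bex1, Bex2 and Bex4 had 8 UMIs or fewer in each ENR library and depended on other media to pass the filter, so this count is a description. Bex4 went from 0, 2 and 0 UMIs in ENR and 0 and 1 in -VE to 836, 1707 and 1102 in Hyper, and was detected in 63%, 86.4% and 84.7% of thinned goblet cells there. Stem cells of the same Hyper libraries held Bex4 at 72.0%, 90.1% and 85.3%. Peg3, an imprinted gene, had no UMI in goblet cells of ENR or -VE and its Hyper level exceeded ENR at least 140.6-fold and -VE at least 225.5-fold, with the floor of 3 UMIs over the group.

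**Figure D5:**
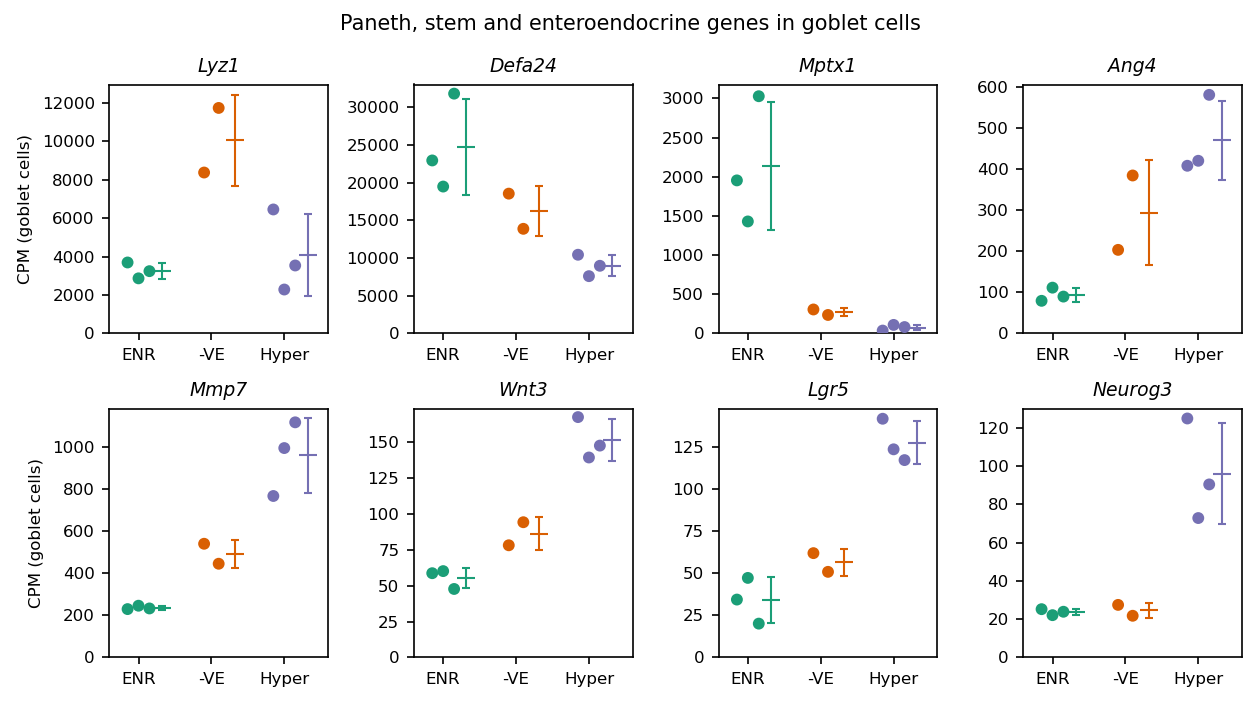
TMM-scaled CPM in goblet cells of Lyz1, Defa24, Mptx1, Ang4, Mmp7, Wnt3, Lgr5 and Neurog3, with 1 point per library and, beside the points, the mean and SD of each medium. Lyz1 is highest in the 2 -VE libraries, at 8377 and 11740, and Neurog3 and Lgr5 are higher in each Hyper library than in any other.

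Outside the lists, the genes named were the largest changes among called genes with a mean of 50 CPM in the higher medium. The named genes did not overlap between the media compared, and the counts below do not require this. Between Hyper and ENR, 88 such genes were higher and 56 lower, while 10.7% and 2.64% of all tested genes were called at any level. Of all tested genes, 24.4% and 19.7% did not overlap in those directions. The 8 largest rises were Bex4, Igfbp2, Bex1, Tceal8, Ifitm1, Bex2, Reg3b and Gpc3. All 8 were at 2.74 CPM or less in each ENR library and depended on other media to pass the filter on low counts. Their order and size therefore depend on levels near 0. With 1 library left out, the log2 fold change ranged from 9.63 to 13.3 for Bex4 and from 7.61 to 11.7 for Igfbp2. Igfbp2, an insulin-like growth factor binding protein, was at 0.593, 0 and 0 CPM in ENR and 108, 30.7 and 51.1 in Hyper, and the glypican Gpc3 went from 0.890, 1.37 and 1.88 to 35.3, 65.4 and 57.3. The 8 largest falls were Mptx1, Aoc1, Hpd, Rep15, Dmbt1, Fabp1, Apoa1 and Olfm4. Aoc1, diamine oxidase, fell from 77.1, 68.4 and 62.8 CPM in ENR to 22.3 and 9.58 in -VE and 5.12, 1.79 and 2.12 in Hyper (-4.49 ± 0.35, adjusted p = 5.37e-06). Dmbt1, a secreted mucosal defence protein, was at 94.9, 77.0 and 161 CPM in ENR, 41.7 and 140 in -VE, and 2.02, 9.83 and 14.2 in Hyper.

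Between Hyper and -VE, 52 genes met the rule upwards and 19 downwards, while 8.72% and 1.15% of all tested genes were called at any level. Apart from genes already named, Tesc, a calcium-binding protein, was among the 8 largest rises, from 2.37 and 2.06 CPM to 51.6, 54.2 and 84.2 (4.84 ± 0.28, adjusted p = 1.11e-06). The glutathione transferases Gsta3 and Gsta1 were among the 8 largest falls, although Gsta1 (-2.07) was not called with DESeq2 (-1.98), ranged from -3.61 (without Hyper replicate 3) to -1.53 (without Hyper replicate 1) with 1 library left out and kept its call only without ENR replicate 3 or Hyper replicate 3. Gsta3 was at 70.5 and 114 CPM in -VE and 17.4, 7.45 and 4.46 in Hyper (-3.20 ± 0.38, adjusted p = 0.000177). Prss32 and Prap1 fell by 2.03 and 1.85 on the log2 scale.

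Between -VE and ENR, 11 genes met the rule upwards and 18 downwards, while 0.529% and 0.606% of all tested genes were called at any level. Igfbp4, which binds insulin-like growth factors, rose from 8.90, 12.3 and 6.59 CPM in ENR to 46.3 and 97.7 in -VE (2.92 ± 0.30, adjusted p = 0.00103), and the metallothionein Mt3 from 20.5, 10.4 and 11.6 to 99.7 and 75.3 (2.65 ± 0.22, adjusted p = 0.000733). Ckb, Rgcc and Phgdh rose too, by 1.48, 1.55 and 1.05 on the log2 scale. Isx, an intestinal homeobox factor, fell from 70.9, 61.7 and 72.8 CPM to 22.3 and 5.22, and the immediate early genes Atf3 and Dusp1 from 38.9, 56.1 and 111 to 19.1 and 9.50 and from 52.8, 53.3 and 121 to 24.6 and 13.6. This comparison rested heavily on -VE replicate 2, without which 11 genes were called in place of 133 (the 1 remaining -VE library is then assumed to vary like the other groups). Igfbp4, Mt3 and Ckb kept their call without any 1 library, whereas those of Ang4, Cd44, Mptx1, Aoc1, Isx, Atf3, Dusp1, Rgcc and Phgdh were lost without -VE replicate 2 (1.12, 1.24, -2.80, -1.64, -1.61, -1.83, -1.60, 1.27 and 0.85) and that of Mmp7 without -VE replicate 1 (0.90).

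The comparison was repeated without goblet cells that held RNA of other lineages. Cells with 3 or more UMIs of Lyz1, Chgb or Fabp1 were left out, which kept 16, 32 and 27 goblet cells in ENR, 25 and 20 in -VE, and 52, 81 and 63 in Hyper. No value of these 3 genes is read from cells chosen on them. Hyper and ENR then differed in 503 of 8577 tested genes, with fewer cells than in the main fit. Fcgbp, Klk1, Tpsg1, Rep15, Ern2, Dnajb9 and Creb3l4 were still called lower in Hyper (-1.05, -2.17, -1.22, -3.02, -1.06, -1.37 and -1.17). Muc2, Bcas1, Capn9, Dll1, St3gal4, St3gal6, Defa24, Mptx1, Olfm4, Ccl6 and Ccl9 had values of -0.87, -1.23, -1.32, -0.83, -0.99, -0.73, -2.15, -3.42, -3.02, -3.44 and -1.56 and were no longer called. Neurog3 and Mmp7 lost their call too, at 0.62 and 1.28. Apoa1 was still called lower (-1.75). Lgr5, Ang4, Wnt3 and Reg3b stayed called higher (1.72, 3.13, 1.21 and 5.66). Between -VE and ENR, where 11 of 8577 tested genes were called in these cells, Ang4 and Mmp7 had values of -4.02 and -2.14, which did not pass the test. These cells were chosen on Lyz1, Chgb and Fabp1, which are Paneth, enteroendocrine and enterocyte genes. Values of genes of these lineages in them, Neurog3 and Apoa1 included, are therefore a description.

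The media also changed goblet cells differently from stem cells in a limited set of genes. With the library as a block, 494 of 12911 genes (3.83%) changed differently between Hyper and ENR, 157 more upwards in goblet cells (1.22%) and 337 more downwards (2.61%). The counts were 213 (1.65%) for Hyper against -VE, 44 upwards (0.341%) and 169 downwards (1.31%), and 30 (0.232%) for -VE against ENR, 9 upwards (0.0697%) and 21 downwards (0.163%). In this fit Fabp1 was at 134, 68.4 and 87.8 CPM in goblet cells of ENR and 5.06, 8.27 and 16.2 in Hyper, while stem cells held 28.5, 38.5 and 43.6 in ENR and 30.7, 72.6 and 212 in Hyper, which overlap (difference of the log2 fold changes -4.68 ± 0.47, adjusted p = 8.61e-06). Selenom, a selenoprotein of the endoplasmic reticulum, was at 806, 691 and 895 CPM in goblet cells of ENR, 899 and 685 in -VE, and 1027, 1111 and 1394 in Hyper, while in stem cells it went from 2.87 to 6.45 CPM in ENR and -VE to 93.1, 165 and 138 in Hyper (-4.46 against ENR). Rcn1, a calcium-binding protein of the same compartment, was higher in Hyper in both classes, going from 25.7, 19.5 and 23.5 CPM in goblet cells of ENR to 60.3, 103 and 97.6 in Hyper, and from 0.226 to 0.540 CPM in stem cells of ENR to 11.4, 24.8 and 17.6 in Hyper (-3.54).

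Paneth genes were among the upward differences from stem cells. Of 20 Paneth genes, 13 moved more upwards and 3 more downwards in goblet than in stem cells between ENR and Hyper (background 1.22% and 2.61%), with a median of 2.06 against 0.01 over all genes. More upwards includes a smaller fall. The summed plain level of the list in goblet cells was 26279 to 38261 CPM in ENR and 13656 to 20904 in Hyper. In stem cells it was 239 to 347 CPM in ENR and 57.7 to 156 in Hyper. For Lyz1 the goblet level in Hyper was 6578, 2351 and 3601 CPM, against 2986 to 3763 in ENR, while the stem level went from 67.7 to 78.1 down to 26.1, 7.27 and 13.5 (2.58 ± 0.14, adjusted p = 3.99e-08). The Paneth class shrank from 32 to 54 cells in ENR to 10, 2 and 2 in Hyper, and the part of free Paneth RNA in the stem values was not tested. Lgr5 rose more in goblet than in stem cells (1.41, adjusted p = 1.55e-05), Anxa5 and Reg3b rose less (-1.56, adjusted p = 2e-05, and -3.05, adjusted p = 0.00236), and Fos, an immediate early gene, fell in goblet relative to stem cells (-1.78, adjusted p = 6.38e-06). Set against the enteroendocrine class in place of the stem class, 471 of 12326 genes moved more upwards and 148 more downwards in goblet cells between ENR and Hyper. Lyz1 and Fabp1 turned direction (-1.96 and 0.51), so these differences belong to the pair of classes compared.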

How the data were processed

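The authors' deposited files are UMI count matrices of 10x Genomics 3′ libraries and a cell annotation. Per the submitters' processing notes these were made with Cell Ranger 3.0.0 on mm10 and Seurat 3.1.4; the matrix headers name 3.1.0. The counts were used as deposited, with 31053 genes, and the 22139 organoid cells of the annotation were kept with no further filter. The authors' methods give a minimum of 1500 genes per cell, and 0 to 10 goblet cells per library were below it. No doublet caller was run, and doublet removal by the authors is not given in the sources used here. The merged count table was checked against the matrices over its 23810 genes, and 0 entries differed.

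Goblet counts were summed per library (3432039 to 12525919 UMIs), filtered with filterByExpr, scaled with TMM and fitted with edgeR 4.0.16 (limma 3.58.1, R 4.3.3) over the 8 libraries, with 5 residual degrees of freedom. Called means at least 2-fold with an adjusted p (Benjamini-Hochberg) under 0.05. Goblet minus stem changes were fitted on 16 sums with the library as a block, again with 5 residual degrees of freedom. Standard errors are the log2 fold change over the square root of F. Fits and thinning were tested on simulated data. Shares used exact permutation tests (two-sided) and exact binomial intervals from scipy 1.17.1 (Python 3.11.15, numpy 2.4.6, pandas 2.3.3; figures with matplotlib 3.10.9). Gene positions are those of the GENCODE annotation on mm10.

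The goblet class, the gene lists and the tests were chosen with earlier results of these data known. Genes were named as list members and as the 15 leading genes against other classes. They were also named as the 8 largest called changes per direction at 50 CPM or more (6 for goblet minus stem). Overlap of groups did not enter the counts of genes that met this rule. Alternatives were RLE size factors, DESeq2 1.42.0, filters on low counts and on cells, thinning, other cell sets and comparison classes, a culture series block and leaving out each library. The 2 colonic crypt samples of the series were not analysed here.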

Additional observations from a re-analysis of the deposited data

Results flagged for a closer look

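Genes are given here because their change with the medium differed between goblet and stem cells by a test of the difference itself, the class by medium term of the edgeR fit with the library as a block. There were 494 such genes between Hyper and ENR, 213 between Hyper and -VE and 30 between -VE and ENR. Groups of 3 libraries or fewer are too small to test for a library far from the others, so none was sought. All values below are goblet minus stem differences of log2 fold changes.

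Between Hyper and ENR the 6 largest upward differences among the genes that met the naming rule were Defa22 at 8.79, Defa30 at 4.55, Defa36 at 3.83, Guca2b, a guanylin-family peptide, at 2.79, Lyz1 at 2.58 and Ang4 at 2.53. Counts of the defensins are uncertain because near-identical copies can share reads. The 6 largest downward differences were Fabp1 at -4.68, Rep15 at -4.55, Ccl6 at -4.48, Selenom at -4.46, Gde1 at -3.96 and Rcn1 at -3.54. The Ccl6 value rests on stem levels of at most 0.394 CPM, and its call was lost without any 1 ENR library or without Hyper replicate 3 (-7.28 without ENR replicate 1 to -2.52 without Hyper replicate 3). Without Hyper replicate 1, Defa36 was at 6.16. Stem levels in Hyper were at most 0.535 CPM for Defa22 and 0.480 CPM for Defa36, so these values too rest on low counts.

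Between Hyper and -VE the upward differences were Defa30 at 3.62, Defa3 at 2.89, Defa36 at 2.69, the defensin-like AY761184 at 2.02, Guca2b at 1.91 and Defa24 at 1.83. An upward difference can be a smaller fall, since Defa3, AY761184 and Defa24 were each lower in goblet cells of Hyper than of -VE. Defa24 went from 19109 and 14277 CPM to 10638, 7816 and 9135 CPM. Downward differences were Selenom at -3.96, Rcn1 at -3.43, Mt3 at -3.23, Cxxc5 at -3.17, Fabp1 at -2.89 and Reg3g at -2.65. Without -VE replicate 1 the calls of Reg3g (-1.36), Defa36 (1.93) and AY761184 were lost, and that of AY761184 also without Hyper replicate 2 (1.41), while Defa36 was at 5.03 without Hyper replicate 1. Reg3g rose in Hyper in both classes, from 2.12 to 20.8 CPM to 65.4, 244 and 186 CPM in goblet cells and from 5.72 to 14.2 CPM to 267, 558 and 847 CPM in stem cells.

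Between -VE and ENR, 3 genes met the rule upwards, Lyz1 at 1.96, Igfbp4 at 1.34 and Rgcc at 1.18. Igfbp4 was at 9.07, 12.8 and 6.85 CPM in goblet cells of ENR and 47.7 and 100 in -VE, and at 73.7, 68.1 and 61.3 CPM in stem cells of ENR and 151 and 238 in -VE, so it rose in both classes. The 6 largest downward differences were Rbp2, a retinol binding protein of enterocytes, at -2.21, Fosb at -1.83, Dusp1 at -1.73, Hist1h1c at -1.35, Apoa1 at -1.12 and Rasa4 at -1.03. Of the genes named for -VE against ENR, Lyz1 alone kept its call without any 1 library. The others were lost without ENR replicate 3 (except Fosb), and all but Igfbp4 without -VE replicate 2. Calls of Rgcc, Dusp1, Hist1h1c, Apoa1 and Rasa4 were also lost without ENR replicate 1, those of Dusp1 and Apoa1 without -VE replicate 1 and that of Rasa4 without Hyper replicate 2. With 1 library left out the values ranged from 1.09 to 1.66 for Igfbp4, 0.96 to 1.41 for Rgcc, -2.63 to -1.52 for Rbp2, -2.19 to -1.48 for Fosb, -2.10 to -1.15 for Dusp1 (highest without ENR replicate 3), -1.52 to -1.16 for Hist1h1c, -1.41 to -0.85 for Apoa1 and -1.38 to -0.65 for Rasa4 (highest without -VE replicate 2).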

How the results depend on the processing

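The number of genes called between Hyper and ENR fell from 1563 to 648 with a minimum of 10 CPM, to 825 with cells thinned to 10000 UMIs and to 503 without cells that held Lyz1, Chgb or Fabp1; between Hyper and -VE it fell from 1156 to 443, 587 and 310, and to 516 without cells with a UMI of Mki67 or Top2a, an alternative chosen after seeing the data. Between -VE and ENR it went from 133 to 351 with no filter on low counts, 11 without the Lyz1, Chgb or Fabp1 cells and 82 without the Mki67 or Top2a cells. Fewer genes are tested under the filter, and fewer cells or UMIs enter the others. In the fit with no filter on low counts, SEs could lie far below the spread between libraries. Those of Zg16 and Clca1 were 0.095 and 0.11 in Hyper against ENR. The counts of that fit are therefore not read as support. Goblet minus stem genes between Hyper and ENR fell from 494 to 313 with thinning. A minimum of 2 UMIs lowered the mean share of goblet cells with Chgb to 0.243%, with Lgr5 to 18.6% and with Mki67 to 24.2%, and the marker definition turned the share difference of Hyper from ENR to -2.96. RLE size factors changed no count by over 1.5 times.

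Leaving out 1 library gave 1322 to 1628 genes for Hyper against ENR, 728 (without -VE replicate 2) to 1202 for Hyper against -VE and 11 (without -VE replicate 2) to 172 for -VE against ENR, where ENR replicate 1 and 3 also mattered (55 and 63). For goblet minus stem the ranges were 342 to 545, 109 (without -VE replicate 1) to 227 and 4 to 47, the lowest without ENR replicate 3, with 7 without ENR replicate 1 or -VE replicate 2 and 47 without ENR replicate 2 or Hyper replicate 1. The share of goblet cells ranged from 0.431 to 0.925, -2.81 to -1.22 and 1.95 to 3.54 percentage points, and the share of mucus UMIs from -2.22 to -1.30, -1.13 to -0.184 and -1.60 to -0.644, for Hyper against ENR, Hyper against -VE and -VE against ENR.

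Directions reversed as follows, and the cause was not tested. Without cells that held Lyz1, Chgb or Fabp1, Hyper against ENR became 0.049 for Clca1, 0.075 for Spink4 and 0.13 for Agr2. Hyper against -VE became 1.90 for Mptx1, 3.54 for Defa26, -0.84 for Clca1, 1.00 for Spink4, 0.56 for Agr2 and 0.10 for Tff3, and -VE against ENR became -4.02 for Ang4, -2.14 for Mmp7, 0.70 for Apoa1, -0.36 for Bex2, 0.89 for Clca1 and 1.85 for Zg16. Without the Mki67 or Top2a cells, Mptx2 became -0.70 in Hyper against -VE. Thinning gave 0.0020 for Spink4 in -VE against ENR. Leaving out single libraries turned Hyper against -VE, with ranges of -1.74 to 0.93 for Clca1, -0.35 to 0.14 for Spink4, -0.53 to 0.091 for Agr2 and -0.38 to 0.067 for Tff3, and -VE against ENR for Spink4 (-0.32 to 0.17). With the enteroendocrine class in place of stem, Hyper against ENR turned for Defa36 (-3.16), Guca2b (-0.14), Lyz1 (-1.96), Ang4 (-1.58), Fabp1 (0.51) and Rcn1 (0.79), Hyper against -VE for Defa3 (-0.58), Defa24 (-0.50) and Cxxc5 (1.77), and -VE against ENR for Lyz1 (-1.34), Igfbp4 (-0.46), Hist1h1c (0.40) and Rasa4 (0.18). With all other kept cells it turned for Ccl6 in Hyper against ENR (1.83) and for Rbp2 (0.38) and Apoa1 (0.56) in -VE against ENR.

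The libraries share culture series numbers. Deviations from the group means correlated at 0.094, 0.106 and 0.244 for ENR with Hyper, 0.087 and 0.120 for ENR with -VE and 0.0735 and 0.0802 for -VE with Hyper, which does not show that the numbers pair the libraries; each ENR and Hyper library correlated best with its own number among the other medium. With the series as a replicate block, 1613, 1231 and 181 genes were called in place of 1563, 1156 and 133. Under the block Clca1 turned to -1.52 in Hyper against -VE and Spink4 to 0.053 in -VE against ENR, and calls were gained for Zg16 in Hyper against ENR (-4.38) and against -VE (-3.87) and for Clca1 in Hyper against ENR (-2.15).

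Of the other values of single genes, 1860 kept their direction and call when 1 library was left out and 223 lost the call, and 1817 and 164 did so under the other alternatives. A gene that failed the filter on low counts in an alternative was not scored there, so these tallies can overstate stability. Without cells that held Lyz1, Chgb or Fabp1, 92 scored values stayed the same, 59 lost the call and 15 reversed. The 1817 include 228 from the fit with no filter on low counts.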

Other observations

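Of 18 imprinted genes 9, and of 39 Hox genes in the matrix 8, were high enough to test, and those with no UMI in ENR passed the filter only through Hyper, so no count of calls is read for these lists. The Hox genes were at low levels, with a summed plain level of 5.68 to 8.16 CPM in ENR, 6.23 to 9.41 in -VE and 16.4, 48.3 and 64.6 in Hyper, and the same sum in stem cells of Hyper was 22.9, 52.9 and 73.9. With DESeq2, Hoxa3, Hoxb4 and Hoxb8 were not called. Hoxb8 and Hoxb9 had no UMI in goblet cells of ENR and were at least 11.7-fold and 13.3-fold higher in Hyper. H19, an imprinted noncoding RNA, also had none in ENR and was at least 13.0-fold higher. Target genes of the Hippo pathway effector YAP summed to 133 to 150 CPM in ENR, 131 to 138 in -VE and 223 to 230 in Hyper.

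Among 14 immediate early and heat shock genes, 1 was higher and 4 were lower in Hyper than in ENR (background 10.7% and 2.64%), and 3 were lower in -VE than in ENR (background 0.606%). Fos was at 346, 324 and 308 CPM in ENR, 156 and 107 in -VE, and 179, 150 and 64.9 in Hyper, and its call in Hyper (-1.31) was lost without Hyper replicate 3 (-0.98). Of 4 enterocyte progenitor genes, 3 were lower in Hyper than in ENR, and of 6 tuft genes, 1 was lower, against the same 2.64%. The 3 include Cfhr2, with no UMI in Hyper, 11 in -VE and 97 in ENR. Cfhr2 could pass the filter on low counts only through ENR, so the enterocyte progenitor count is a description. Markers of immune cells summed to 4.07 to 8.85 CPM in goblet cells over the 8 libraries, with none of 2 tested genes called, and stromal markers summed to at most 1.97 CPM, with none of 10 high enough to test.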
